A study of Mus musculus with 8 samples.

Results

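The 10 genes described here are the ligands of the TGF-beta family proper (*Tgfb1*, *Tgfb2*, *Tgfb3*), their receptors (*Tgfbr1*, *Tgfbr2*, *Tgfbr3*) and 4 transcription factors of the mesenchymal transition (*Snai1*, *Snai2*, *Twist1*, *Sox9*). They were taken by symbol from a table of 53465 genes, and all 10 passed the filter that left 14451 genes for testing. RNA-seq of polyadenylated RNA was performed on heart ventricles of mouse embryos at embryonic day (E) 9.5. The 4 mutant samples carried the genotype Nrg-1flox;Tie2-Cre, in which the gene for neuregulin-1, *Nrg1*, is deleted with the Tie2-Cre driver, and the 4 controls were labelled WT. Tie2-Cre is active in endothelial cells, endocardium included, and also in many blood cells, and is not known to act in cardiomyocytes. The labels do not state whether the controls carried a floxed allele or whether a sample was 1 embryo or a pool, so the p-values measure only the spread between these samples, which may be technical.

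TGF-beta ligands are secreted in a latent form and, once released, bind a pair of serine/threonine kinase receptors, which pass the signal to Smad proteins that enter the nucleus. Betaglycan, the product of *Tgfbr3*, is a co-receptor that presents ligand, TGF-beta2 in particular, to the signalling pair. In the heart the pathway is best known for the endocardial cushions, where endocardial cells of the atrioventricular canal and outflow tract leave their layer, enter the cardiac jelly and become the mesenchyme of the future valves. The Snail proteins, encoded by *Snai1* and *Snai2*, repress the genes of cell junctions during this step, whereas *Twist1* and *Sox9* mark the mesenchyme that results. The dissected tissue was labelled as ventricles, which do not form cushions, and the labels do not say how much of the canal or outflow tract it held.

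The 250 bases before the transcription start are shown for 4 of the genes, because *Tgfb2* and *Tgfbr1* are among the genes whose RNA was lower in the mutants while *Snai1* and *Twist1* are factors whose RNA did not pass the test. The sequences are RefSeq's on GRCm38.p6, written along the strand of the gene. The windows are chr1:186705990-186706239 (minus strand) for *Tgfb2*, chr4:47352972-47353221 (plus) for *Tgfbr1*, chr2:167537945-167538194 (plus) for *Snai1* and chr12:33957421-33957670 (plus) for *Twist1*. Each ends beside the first base of the gene in the GENCODE annotation of GRCm38. Capitals mark matches, on either strand, to the E-box CANNTG, the Snail-type E-box CAGGTG (itself an E-box), the short SMAD motif CAGAC, the core of the cyclic AMP response element TGACG, the GC box GGGCGG and the TATA motif TATAAA.
Tgfb2: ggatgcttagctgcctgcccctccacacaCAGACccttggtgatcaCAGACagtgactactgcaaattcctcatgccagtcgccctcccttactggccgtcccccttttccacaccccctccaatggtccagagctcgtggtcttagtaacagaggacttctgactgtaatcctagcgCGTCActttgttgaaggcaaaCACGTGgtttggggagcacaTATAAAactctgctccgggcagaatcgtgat
Tgfbr1: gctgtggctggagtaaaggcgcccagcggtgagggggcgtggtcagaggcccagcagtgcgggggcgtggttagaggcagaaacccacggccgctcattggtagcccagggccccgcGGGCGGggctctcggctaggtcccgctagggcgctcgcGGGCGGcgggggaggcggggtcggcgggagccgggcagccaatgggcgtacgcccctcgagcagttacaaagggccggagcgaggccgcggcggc
Snai1: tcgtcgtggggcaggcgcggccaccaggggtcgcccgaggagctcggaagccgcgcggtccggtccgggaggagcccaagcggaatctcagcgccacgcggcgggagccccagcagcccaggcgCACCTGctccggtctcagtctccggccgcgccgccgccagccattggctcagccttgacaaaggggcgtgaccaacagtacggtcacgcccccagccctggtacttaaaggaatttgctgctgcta
Twist1: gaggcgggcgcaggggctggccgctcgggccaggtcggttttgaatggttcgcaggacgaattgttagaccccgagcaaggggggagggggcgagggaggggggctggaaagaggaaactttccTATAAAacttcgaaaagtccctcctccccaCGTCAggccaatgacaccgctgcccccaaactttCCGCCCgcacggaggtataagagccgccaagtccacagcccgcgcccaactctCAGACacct

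The *Tgfb2* window had a GC content of 53.6%, against a median of 52.4% over 32851 windows of this length, and held a TATA motif 25 bases from the start, an E-box at 45 bases, TGACG at 67 bases and CAGAC 2 times. The *Tgfbr1* window was GC-rich, at 74.8%, and held 2 GC boxes and none of the other motifs. The *Snai1* window, at 70.0% GC, held 1 Snail-type E-box, 120 bases from the start. The *Twist1* window, at 62.4% GC, held a TATA motif, a GC box, TGACG and CAGAC. The same motifs were common in all windows: CANNTG was in 66.2% of them, CAGAC in 42.2%, GGGCGG in 32.7%, TGACG in 17.8%, CAGGTG in 17.2% and TATAAA in 12.4%. The full palindromes GTCTAGAC and TGACGTCA were in 0.2% and 1.5% of all windows and in none of these 4. The windows printed for *Tgfb2* and *Tgfbr1* shared none of the searched motifs. A second RefSeq window of *Tgfbr1*, at chr4:47385966-47386215 within the gene and not printed, held an E-box and CAGAC, as the *Tgfb2* window did. A match is a description of the letters, not of a bound site.

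The label of the mutants was checked on *Nrg1* itself, which gave 61, 59, 71 and 72 counts in the mutants and 156, 131, 121 and 173 in WT. The difference was -1.07 on the log2 scale (SE 0.14, edgeR quasi-likelihood test, adjusted p = 0.00268), and the counts span the whole gene, so they do not measure the deleted exons alone. Total counts were 12430368 to 14223860 in the mutants and 11852372 to 14360323 in WT. The hemoglobin genes took 1.93% to 6.26% of the counts in the mutants and 0.671% to 0.799% in WT, and mutant replicate 1 had the highest share. Cardiomyocyte markers were high in every sample, with *Tnnt2* (cardiac troponin T) at 1829 to 2406 CPM (counts scaled to library size). The summed erythroid markers exceeded the summed cardiomyocyte markers in mutant replicates 1, 3 and 4. The 10 foregut and liver markers summed to 1.07 to 7.12 CPM in the mutants and 1.42 to 7.23 CPM in WT, with *Epcam* at or below 2.71 CPM, *Foxa1* and *Foxa2* at or below 0.411 CPM and *Afp* at 5.34 CPM in mutant replicate 1.

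In the mutants 3 of the 10 genes were called lower and none was called higher. The 3 were the ligand gene *Tgfb2* and the receptor genes *Tgfbr1* and *Tgfbr3*, each lower by 20.9% to 24.3%. *Tgfb3* had the largest log2 fold change of the 10, 0.67, but missed the threshold (edgeR adjusted p = 0.0835). On GRCm38, *Tgfb2* lies at chr1:186622792-186705989 (minus strand), *Tgfbr1* at chr4:47353222-47414931 (plus) and *Tgfbr3* at chr5:107106570-107289629 (minus), and the counts cover all exons of each gene. The 4 transition factors gave no call in either direction. For comparison, 8.62% of all genes tested were called at an adjusted p under 0.05, with 3.50% lower and 5.11% higher in the mutants. The median log2 fold change of the 10 genes was -0.17, and it was -0.0014 over all genes tested. The TMM-normalized CPM of all mutant samples lay below that of all WT samples for these same 3 genes, as it did for 9.45% of all genes tested. Since whole ventricle pieces were sequenced, fewer cells of one type and less RNA per cell cannot be told apart.

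**Figure D1:**
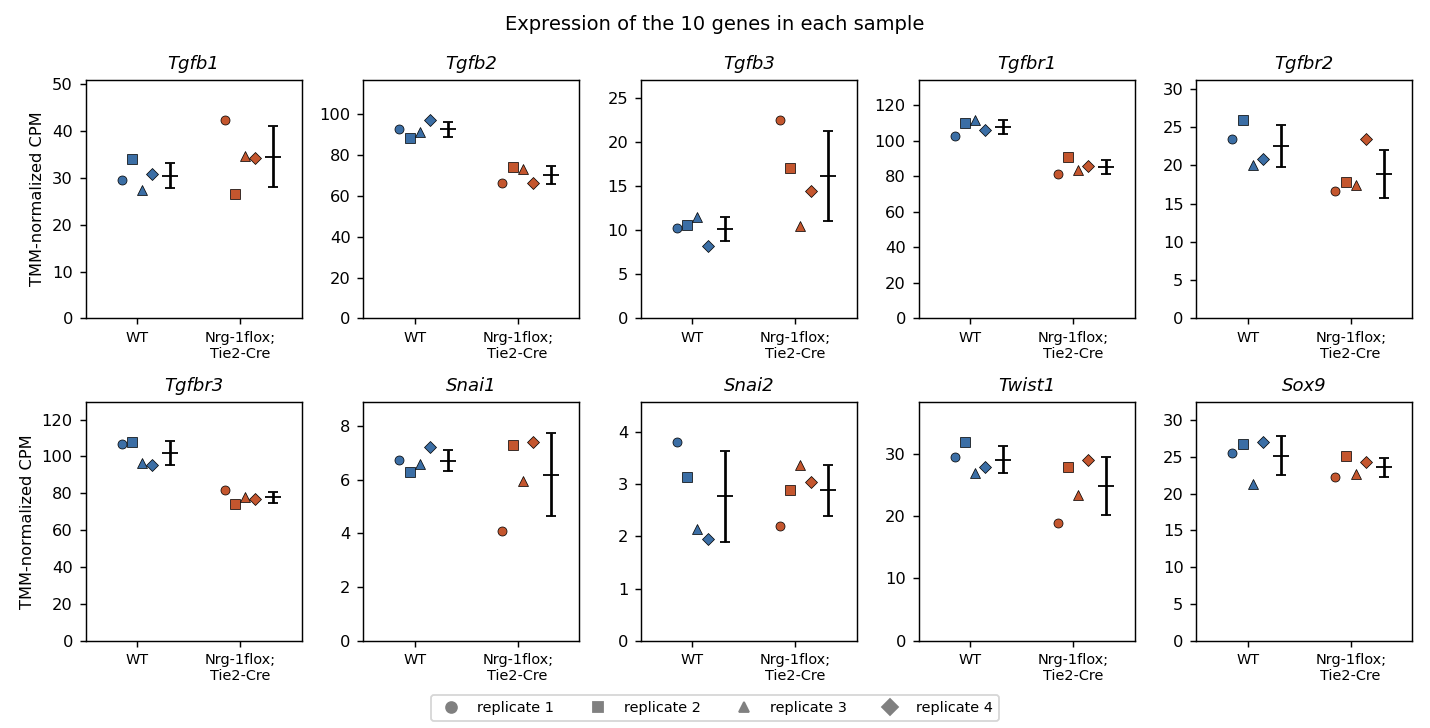
TMM-normalized CPM (vertical axes, from 0) of the 10 genes in the 4 WT samples (blue) and the 4 Nrg-1flox;Tie2-Cre samples (orange), 1 point a sample, with the mean and SD beside each group. For *Tgfb2*, *Tgfbr1* and *Tgfbr3* every orange point lies below every blue one, and in the other 7 panels the groups overlap.

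The ligand genes did not move together. *Tgfb2*, the ligand gene of the cushions that myocardium and endocardium both make, was at 66.1, 74.4, 73.3 and 66.4 CPM in mutant replicates 1 to 4 and at 93, 88.5, 91.5 and 97.4 CPM in WT. The highest mutant sample was below the lowest WT sample, and the log2 fold change was -0.40 (95% interval -0.54 to -0.26, SE 0.06, edgeR adjusted p = 0.00479). Scaled to the endothelial marker sum, it was -0.24 and not called (edgeR adjusted p = 0.0812). *Tgfb1*, whose product acts in endothelium and blood cells among others, was at 42.4, 26.5, 34.7 and 34.2 CPM in the mutants and at 29.6, 33.9, 27.4 and 30.8 CPM in WT. The mutants held both the highest and the lowest of the 8 values, and the log2 fold change of 0.18 had an interval of -0.11 to 0.46 (edgeR adjusted p = 0.434). It was 0.062 without mutant replicate 1 and 0.29 without mutant replicate 2.

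*Tgfb3*, the least abundant of the ligand genes, was at 22.6, 17.1, 10.5 and 14.5 CPM in the mutants and at 10.3, 10.6, 11.5 and 8.25 CPM in WT. Mutant replicates 1, 2 and 4 were above all WT samples, and replicate 3 lay within the WT range. Its log2 fold change of 0.67 (SE 0.21, interval 0.19 to 1.14) missed the threshold (edgeR adjusted p = 0.0835), although DESeq2 called it higher (adjusted p = 0.0304), as did edgeR without mutant replicate 3 (0.83, adjusted p = 0.0291). Without mutant replicate 1, the sample with the most hemoglobin, its log2 fold change was 0.47 (edgeR adjusted p = 0.0837).

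The make-up of the ligand RNA was read within each sample. On a scale of CPM per kilobase of merged exons, the 3 ligand genes summed to 26.5, 23.2, 22.7 and 22.5 in the mutants and 25, 25.1, 24.7 and 25.4 in WT, and these sums overlapped. *Tgfb2* gave 43.1%, 55.5%, 55.9% and 50.9% of that sum in the mutants and 64.3%, 60.8%, 64.1% and 66.3% in WT. Its mean share was 51.3% ± 5.96 (SD, n = 4) in the mutants and 63.9% ± 2.29 in WT, with no overlap between the groups. The share of *Tgfb3* was 19.9% ± 4.87 and 12% ± 1.75, and that of *Tgfb1* was 28.7% ± 4.08 and 24.1% ± 1.95, and for both the groups overlapped. Shares sum to the whole, so the 3 values are not independent, and they were not tested.

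All 3 receptor genes had negative fold changes, and 2 passed the test. *Tgfbr1*, the type I receptor kinase that phosphorylates Smads, was at 81.4, 91, 83.4 and 85.6 CPM in the mutants and 103, 110, 112 and 106 CPM in WT. Its groups stood apart, with a log2 fold change of -0.34 (interval -0.47 to -0.21, SE 0.06, edgeR adjusted p = 0.00743). After adjustment for the GC content and length of genes its value was -0.28 and just missed the threshold (edgeR adjusted p = 0.0512, or 0.0574 when the replicate number was also a block), and scaled to the endothelial marker sum it was -0.17 (0.127).

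*Tgfbr3*, the betaglycan gene, was at 81.6, 74.4, 77.8 and 77.1 CPM in the mutants and at 107, 108, 96.6 and 95.5 CPM in WT. The groups did not overlap, and the log2 fold change was -0.39 (interval -0.53 to -0.25, SE 0.06, edgeR adjusted p = 0.00562). Scaled to the endothelial marker sum it was -0.22 and still called (edgeR adjusted p = 0.0439). *Tgfbr2*, the type II receptor kinase that binds ligand first, was at 16.6, 17.9, 17.4 and 23.5 CPM in the mutants and at 23.4, 26, 20 and 20.8 CPM in WT. Mutant replicate 4 was above 3 of the WT samples, and the log2 fold change of -0.26 was not called (interval -0.55 to 0.03, SE 0.13, edgeR adjusted p = 0.244), and was -0.38 without that sample (0.0851). Scaled to the endothelial marker sum, *Tgfbr2* was at -0.093 (edgeR adjusted p = 0.632). The interval of -0.55 to 0.03 includes the values of the other 2 receptor genes.

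Summed per kilobase, the receptor genes were at 26.9, 27.5, 26.8 and 27.8 in the mutants and at 35, 36.6, 34.4 and 33.4 in WT, with no overlap. The mix of receptors stayed close: *Tgfbr1* gave 48% ± 1.92 (SD, n = 4) of the receptor sum in the mutants and 47.5% ± 2.3 in WT, *Tgfbr3* gave 43.6% ± 2.16 and 44.6% ± 1.73, and *Tgfbr2* gave 8.44% ± 1.28 and 7.89% ± 0.695. In all 3 shares the groups overlapped. The groups thus stood apart in the summed receptor RNA, and in the share of *Tgfb2* among the ligands, and neither was tested.

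**Figure D2:**
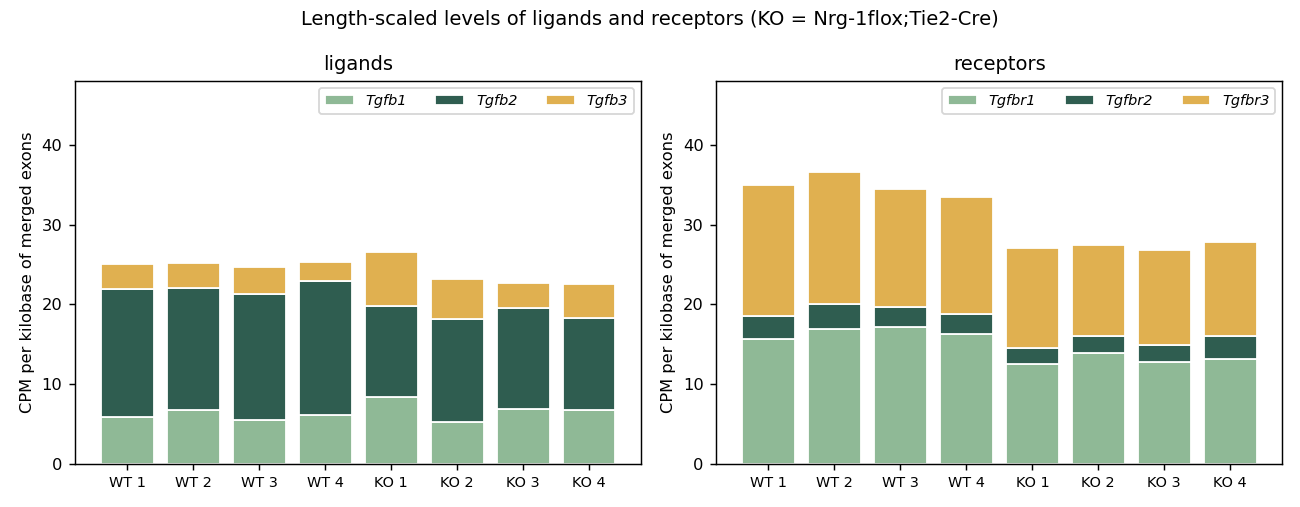
Length-scaled levels (CPM per kilobase of merged exons, stacked bars from 0) of the ligand genes and of the receptor genes in each WT and Nrg-1flox;Tie2-Cre (KO) sample. The ligand bars reach 22.5 to 26.5 in the mutants and 24.7 to 25.4 in WT with a narrower *Tgfb2* band in the mutants, and the receptor bars reach 26.8 to 27.8 and 33.4 to 36.6.

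None of the 4 transition factors passed the test, and their log2 fold changes ran from -0.23 to 0.06. *Twist1*, a basic helix-loop-helix factor of the cushion mesenchyme, was at 18.9, 27.9, 23.5 and 29.1 CPM in the mutants and at 29.6, 32, 27 and 27.9 CPM in WT. Mutant replicate 1 was the lowest of the 8 samples, and the log2 fold change was -0.23 (interval -0.51 to 0.06, edgeR adjusted p = 0.304) with all samples and -0.12 without that one. After adjustment for GC content and length it was -0.37 (edgeR adjusted p = 0.0557, or -0.38 and 0.0758 with the block), still not called. *Sox9*, an HMG-box factor that cushion mesenchyme and cartilage precursors share, was at 22.3, 25.1, 22.7 and 24.3 CPM in the mutants and at 25.5, 26.8, 21.4 and 27.1 CPM in WT. It was the most evenly measured of the factors, with a log2 fold change of -0.10 and an SE of 0.09, and its interval was -0.30 to 0.10 (edgeR adjusted p = 0.551). Its value was -0.17 without WT replicate 3 and -0.06 without WT replicate 4.

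The Snail genes were low. *Snai1* gave 48, 101, 83 and 90 counts in the mutants and 88, 88, 80 and 107 in WT, which is 4.07 to 7.42 and 6.3 to 7.23 CPM. Mutant replicate 1 was again the lowest, and the log2 fold change of -0.11 (SE 0.18, interval -0.52 to 0.30, edgeR adjusted p = 0.747) became 0.038 without it. After adjustment for GC content and length the value of *Snai1* was -0.27 (edgeR adjusted p = 0.342, or -0.28 and 0.37 with the block). *Snai2* gave 26, 40, 47 and 37 counts in the mutants and 50, 44, 26 and 29 in WT, with a log2 fold change of 0.06 (SE 0.25, interval -0.49 to 0.62, edgeR adjusted p = 0.906). Both intervals include -0.40, the value of *Tgfb2*, so a fall of that size is not excluded for either Snail gene.

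Set side by side, the ligand and receptor genes gave 3 calls in 6 with a median log2 fold change of -0.30, and the transition factors gave 0 calls in 4 with a median of -0.10. The ligand and receptor genes called had SEs of 0.06, while those of the factors ran from 0.09 to 0.25. The intervals of *Twist1*, *Snai1* and *Snai2* include the values of the genes called. That of *Sox9*, -0.30 to 0.10, includes none of them. After adjustment for GC content and length the sets lay closer. The calls were then 2, the factors ran from -0.37 to 0.11 and the ligand and receptor genes from -0.39 to 0.61. The difference between both sets was not tested, so the absence of calls among the factors does not show that they differ from the ligands and receptors.

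**Figure D3:**
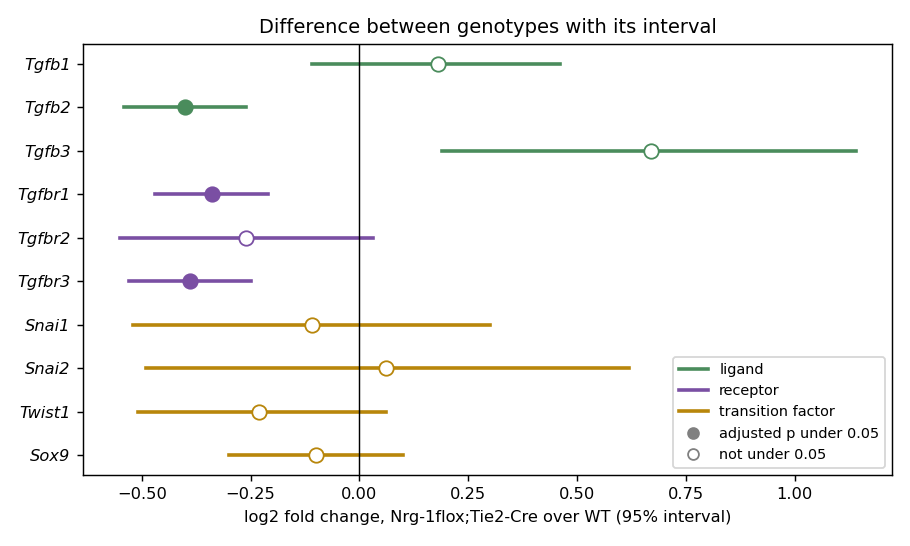
Log2 fold change of each gene, Nrg-1flox;Tie2-Cre over WT, with its 95% interval (horizontal axis), coloured by role and filled where the adjusted p is under 0.05. The filled points are *Tgfb2* at -0.40, *Tgfbr3* at -0.39 and *Tgfbr1* at -0.34, and the intervals of *Snai1* and *Snai2* are among the widest.

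Levels between genes were compared per kilobase of merged exons. In WT, *Twist1* was at 17.9 ± 1.37 CPM per kilobase (SD, n = 4), *Tgfbr1* at 16.5 ± 0.657, *Tgfb2* at 16 ± 0.637 and *Tgfbr3* at 15.6 ± 1.02, and each of these overlapped its neighbour in the order. *Sox9* at 6.09 ± 0.639 and *Tgfb1* at 6.03 ± 0.533 followed, apart from those above and overlapping each other. *Snai1* stood alone at 4.14 ± 0.241. *Tgfb3* at 3.01 ± 0.407 and *Tgfbr2* at 2.76 ± 0.334 overlapped, and *Snai2* was the lowest at 1.37 ± 0.434. The 3 genes called lower in the mutants were thus the most abundant of the ligand and receptor genes. In the mutants the order was the same but for 2 swaps of neighbours, *Tgfb1* (6.83 ± 1.29) above *Sox9* (5.7 ± 0.318) and *Tgfb3* (4.78 ± 1.5) above *Snai1* (3.82 ± 0.963).

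The wider pathway was read from 3 lists, whose counts stand beside 3.50% of all genes tested lower and 5.11% higher. Of 24 genes for ligand activation, co-receptors and Smads, 23 were tested, 3 were lower in the mutants and 0 higher, with a median log2 fold change of -0.10. After adjustment for GC content and length 7 were lower. *Bambi*, which encodes a pseudoreceptor that lacks the kinase, fell by 0.42 on the log2 scale (SE 0.07, edgeR adjusted p = 0.00787), from 86.8 to 103 CPM in WT to 67.8 to 78 CPM in the mutants. *Itgav* and *Itgb8*, the subunits of an integrin that releases latent TGF-beta, gave -0.44 (SE 0.08, edgeR adjusted p = 0.012) and -0.62 (SE 0.14, edgeR adjusted p = 0.0291). Scaled to the endothelial marker sum, *Itgav* gave -0.27 (edgeR adjusted p = 0.0282). For all 3 genes the groups did not overlap, but *Itgb8* kept its call in 3 of 8 fits with 1 sample left out, with an adjusted p of 0.0587 to 0.0911 without mutant replicate 3 or 4 or WT replicate 1, 2 or 3. *Bambi* lost its call with the block and GC adjustment together (edgeR adjusted p = 0.0509) and when scaled to the endothelial marker sum (-0.25, 0.0633). The Smad genes of the pathway were not called, *Smad2* at -0.10 (edgeR adjusted p = 0.441), *Smad3* at -0.10 (0.233) and *Smad4* at 0.15 (0.368), although every mutant value of *Smad3* (65.3 to 67.9 CPM) was below every WT value (70.4 to 73.5 CPM).

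Of 15 genes known to respond to TGF-beta, 14 were tested, 2 were higher in the mutants and 0 lower, with a median log2 fold change of 0.26. *Tagln*, the gene of the actin-binding protein transgelin, which early cardiomyocytes also make, was at 751 to 907 CPM in the mutants and 555 to 665 CPM in WT (0.41, SE 0.08, edgeR adjusted p = 0.0125). *Cdkn1a*, a cyclin-dependent kinase inhibitor gene that p53 also induces, was at 20.9 to 38.6 CPM against 14.9 to 17.4 CPM (0.72, SE 0.18, edgeR adjusted p = 0.0397). Both calls were lost in some fits: that of *Tagln* without WT replicate 1 (edgeR adjusted p = 0.0504) and with the block and GC adjustment together (0.0573), and that of *Cdkn1a* without mutant replicate 4 or any 1 of the WT samples (0.08 to 0.12), in 4 of 9 other ways of processing (0.0574 to 0.126), and when scaled to the cardiomyocyte marker sum (0.0532). The feedback genes *Smad7* (0.03, edgeR adjusted p = 0.901) and *Skil* (-0.01, 0.973), which the pathway induces directly, gave no call. Both values depended on mutant replicate 1, the highest sample for each. *Skil* was at 60.4 CPM there, at 35.6 to 39 CPM in the other mutants and at 39.7 to 51.3 CPM in WT. *Smad7* was at 55.5 CPM there, at 37 to 42.7 CPM in the other mutants and at 40.5 to 46.3 CPM in WT. *Ccn2*, a matricellular gene chosen after its values were seen, was by far highest in mutant replicate 1. It was at 257 CPM there, at 58.9 to 78.4 CPM in the other mutants and at 37.7 to 41 CPM in WT, with a log2 fold change of 1.52 (edgeR adjusted p = 0.0627). It was called without that sample (0.74, edgeR adjusted p = 0.000995), and with all samples by DESeq2 (0.0379) and by edgeR with no filter on low counts (0.0151).

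Of 24 other genes of the transition and the cushion mesenchyme, all tested, 3 were lower and 0 higher, with a median log2 fold change of -0.18. *Has2*, the synthase of the hyaluronan that fills the cardiac jelly, was at 20.4 to 22.4 CPM in the mutants and 36.6 to 52.2 CPM in WT (-1.06, SE 0.11, edgeR adjusted p = 0.00152). *Vcan*, which encodes the proteoglycan that binds hyaluronan there, gave -0.57 (SE 0.08, edgeR adjusted p = 0.00279). *Tbx20*, a T-box factor of myocardium and cushions, gave -0.31 (SE 0.06, edgeR adjusted p = 0.0165), and was not called without WT replicate 1, 3 or 4 (adjusted p = 0.0546 to 0.0591) or with the GC and length adjustment (0.155, or 0.141 with the block) or when scaled to the endothelial marker sum (-0.15, 0.258). The calls in this list thus fell on 2 matrix genes and 1 factor of the myocardium as well as the cushion, while the transition factors *Zeb1* (-0.14, edgeR adjusted p = 0.476), *Zeb2* (0.06, 0.807), *Twist2* (0.00017, 1.0) and *Snai3* (0.74, 0.151) gave none. *Zeb1* was at 77.6 CPM in mutant replicate 1, at 52.7 to 58.1 CPM in the other mutants and at 65.8 to 67.6 CPM in WT. Its lack of a call thus depended on that sample's high value. Without mutant replicate 1 the count of lower genes in this list was 6, while that over all genes went from 506 to 1155. *Msx1* (-0.63, edgeR adjusted p = 0.0562) and *Msx2* (-0.68, 0.0639), homeobox genes of the cushion endocardium and mesenchyme picked after their values were seen, missed the threshold although every mutant sample was below every WT sample.

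**Figure D4:**
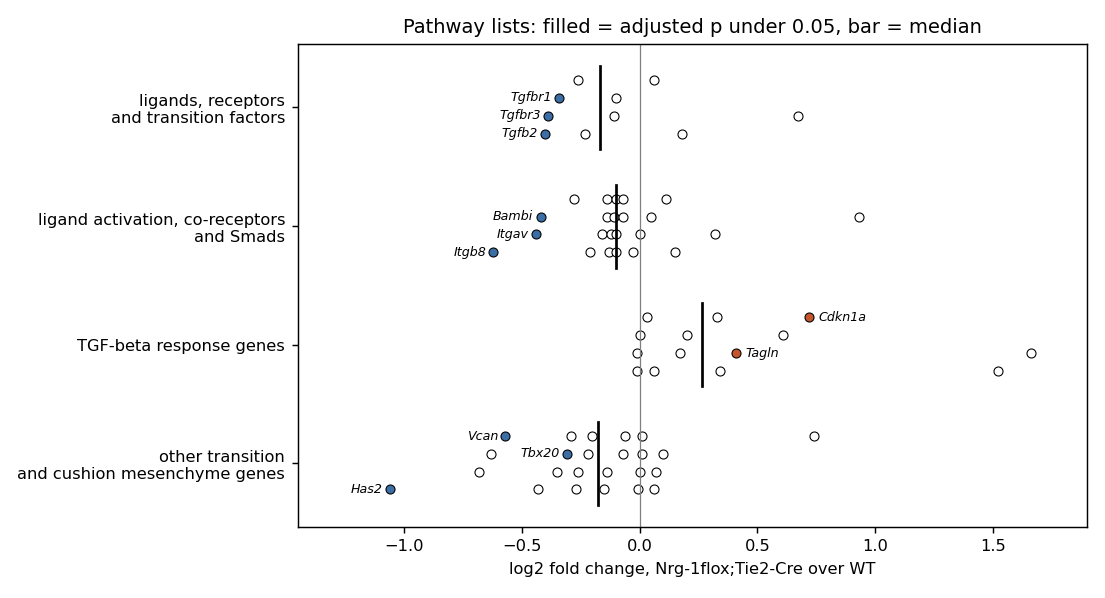
Log2 fold change, Nrg-1flox;Tie2-Cre over WT (horizontal axis), of each tested gene of the 10 and of the 3 pathway lists, 1 point a gene, filled and named where the adjusted p is under 0.05, with a bar at the median of each list. The list medians are -0.17, -0.10, 0.26 and -0.18 from top to bottom, and *Has2* at -1.06 is the lowest point.

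Some markers of other cell types differed between the genotypes. The 11 endocardial and endothelial markers summed to 841 to 930 CPM in the mutants and 961 to 1035 CPM in WT, a fall of 10.8% with no overlap. Among them *Pecam1* (-0.0071) and *Cdh5* (-0.14) were not called, *Kdr* (-0.38, edgeR adjusted p = 0.0681) missed the threshold, *Tek* was lower (-0.34, 0.031) and *Sox17* higher (1.03, 0.00743). When the samples were scaled to the endothelial marker sum instead, which moved the median of all genes to 0.16, *Tgfb2* gave -0.24 (edgeR adjusted p = 0.0812), *Tgfbr1* -0.17 (0.127) and *Tgfbr3* -0.22 (0.0439), so only *Tgfbr3* of the 3 kept its call, and *Tgfb3* at 0.83 was called higher (0.0142). The 12 cardiomyocyte markers summed to 35941 to 39662 CPM in the mutants and 38399 to 40414 CPM in WT, which overlap, and *Myh6* (-0.25, edgeR adjusted p = 0.0796) and *Myh7* (0.09, 0.694) were not called. Scaled to these, *Tgfb2* gave -0.37 (edgeR adjusted p = 0.013), *Tgfbr1* -0.30 (0.0149) and *Tgfbr3* -0.35 (0.0174). Both scalings were chosen after seeing the data.

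Of the 9 epicardial markers, 8 were tested and 2 were higher, *Wt1* (0.57, edgeR adjusted p = 0.0126) and *Tbx18* (0.50, 0.0315), and *Tcf21* at 0.55 was not called. The sum of the 9 markers was 319 to 511 CPM in the mutants and 216 to 282 CPM in WT, highest in mutant replicate 1. In that sample *Krt19* gave 289 CPM of the sum, against 84 to 122 CPM in the other mutants and 59.5 to 86.6 CPM in WT. The separation of the sums thus rests in part on 1 gene in 1 sample. All 10 erythroid markers were higher, among them the embryonic globin genes *Hba-x* (2.69), *Hbb-y* (2.45) and *Hbb-bh1* (2.50), with sums of 19822 to 68682 CPM against 6689 to 8089 CPM. Megakaryocyte and platelet markers gave 2 calls in 9, both higher, with sums of 59.4 to 192 CPM against 35 to 54.9 CPM, *Itga2b* called (1.15, edgeR adjusted p = 0.0478) and *Pf4* (1.34) and *Ppbp* (1.31) not called. Macrophage markers gave 1 call in 2 tested, *Csf1r* (1.08), with sums of 9.35 to 16.4 CPM against 5.54 to 7.07 CPM, and *Ptprc* and *Cx3cr1* at or below 1.78 CPM. Neural crest markers were near 0, with sums of 1.02 to 1.8 CPM against 0.611 to 2.05 CPM, *Sox10* at or below 0.986 CPM, *Foxd3* at or below 0.0764 CPM and *Tfap2a* at or below 0.495 CPM. Without the hemoglobin and mitochondrial genes in the table, *Tgfb2* (-0.39), *Tgfbr1* (-0.33) and *Tgfbr3* (-0.38) remained called. What part these cell types have in the values of the 10 genes was not tested.

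**Figure D5:**
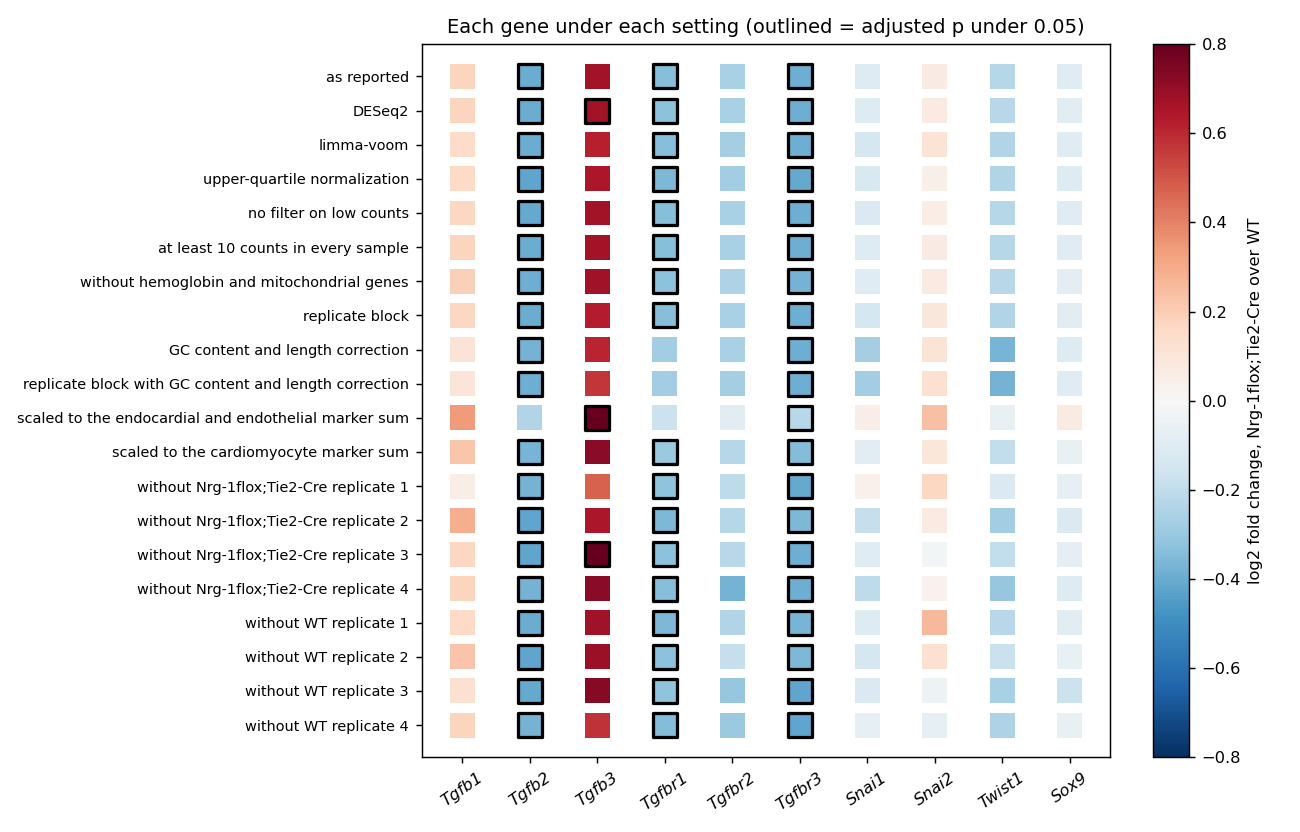
Log2 fold change of each gene (colour), Nrg-1flox;Tie2-Cre over WT, under each way of processing the counts (rows), outlined in black where the adjusted p is under 0.05. *Tgfbr3* is outlined in every row, *Tgfb2* in all but the scaling to the endothelial markers, *Tgfbr1* in all but that one and the 2 with a GC content and length correction, *Tgfb3* in 3, and the factors in none.

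Leaving aside both scalings to marker sums, *Tgfb2* and *Tgfbr3* were called in all 9 other ways of processing and in all 8 fits with 1 sample left out, with log2 fold changes of -0.42 to -0.38 and -0.42 to -0.36. *Tgfbr1* was called in 7 of the 9 and in all 8. With the scaling to the endothelial marker sum, *Tgfb2* (-0.24) and *Tgfbr1* (-0.17) were not called. None of the transition factors was called under any of these settings.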

How the data were processed

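RNA from 4 Nrg-1flox;Tie2-Cre and 4 WT samples was isolated with the PicoPure kit, made into libraries with the NEBNext Ultra RNA kit and sequenced as single reads of 60 bases. Per the labels, the authors used cutadapt and RSEM (1.3.1) with GRCm38, and deposited 1 table of expected counts per gene, whose file name gives Ensembl release 91. The aligner and the strand setting are not given in the sources used here. Since RSEM divides reads among overlapping transcripts, 15.5% to 16.5% of values are not whole, and a gene and an overlapping partner may share reads. The annotated genes that overlap exons of *Tgfb2*, *Tgfb3* and *Tgfbr3* averaged at most 1.6 counts.

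Expected counts were rounded and tested in edgeR (4.0.16, R 4.3.3) by the quasi-likelihood test on the groups labelled in GEO, with TMM normalization (factors 0.934 to 1.032) and filterByExpr. P-values were adjusted by Benjamini-Hochberg over the 14451 genes tested, with a threshold of 0.05. SEs and 95% intervals follow from the same fit. CPM are TMM-normalized. Samples of 1 group differed by at least 3.74 times counting noise (chi-square per degree of freedom). This cannot tell separate embryos from separate libraries of the same pool. Each sample was counted once. Alternatives were DESeq2 (1.42.0), limma-voom (3.58.1), upper-quartile normalization, other filters, a replicate block, a GC and length correction (known for 99.9% of genes tested) and each sample left out. The code was tested on simulated data.

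The 10 genes and the lists were chosen with earlier results of these data known. All 10 were named, with *Nrg1* as the check of the label, the called genes of each pathway list with the smallest adjusted p (up to 4 a direction) and the first 3 genes of each marker list. Other genes named were chosen after their values were seen. Gene positions and lengths are from GENCODE M21. RefSeq promoter windows were found for 6 of the 10 genes, and no protein sequence was used here.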

Additional observations from a re-analysis of the deposited data

Results flagged for a closer look

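Of 44 groups of 4 samples tested for a value far from the rest, 2 stood out, and chance gives about 1 in 20, or 2.2. The summed CPM of the megakaryocyte and platelet markers was 192 in mutant replicate 1 and 59.4 to 69.4 in the other mutants, a gap of 0.924 of the range. The summed CPM of the macrophage markers was 16.4 in the same sample and 9.35 to 10.3 in the others, a gap of 0.866 of the range. None of the 10 genes stood out in this way in either genotype.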

How the results depend on the processing

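The number of genes called, 1245 with all samples, was 509 to 2523 when 1 sample was left out, 616 with the replicate number as a block, 568 with the block and the GC content and length correction, and 2629 (2491 higher, 138 lower) when scaled to the endothelial marker sum. Numbers did not pair the samples, since same-numbered samples correlated at -0.091 to 0.019 after removal of group means, and the block lost none of the calls of *Tgfb2*, *Tgfbr1* and *Tgfbr3*. In the list of ligand activation, co-receptors and Smads, 7 were lower with the GC content and length correction and 2 higher when scaled to the endothelial markers, and leaving out 1 sample gave 0 to 1 higher. Of the response genes, 4 were higher with DESeq2 and with no filter on low counts, 1 with limma-voom, the replicate block, the GC content and length correction or the scaling to cardiomyocyte markers, 0 with the block and that correction together, 5 when scaled to the endothelial markers, and 0 to 3 with 1 sample left out. Of the other transition and cushion genes, 5 were lower with DESeq2 and with no filter, 1 was higher when scaled to the endothelial markers, and 2 to 6 were lower with 1 sample left out. Uncalled log2 fold changes that turned sign were those of *Snai1* (0.052) and *Sox9* (0.069) when scaled to the endothelial markers, and, with 1 sample left out, *Snai1* (-0.21 to 0.038) and *Snai2* (-0.075 to 0.26). The causes were not tested. *Snai2* had 26 to 50 counts a sample and an SE of 0.25, and whether more depth would narrow it was not tested.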
